A study of Homo sapiens with 24 samples.

Results

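Antisense long noncoding RNA genes were followed over the time series. They were taken as every gene of the expression table whose GENCODE 29 symbol ends in -AS and a number and whose gene type is not protein coding. Of 12285 genes in the table, 188 were such genes, and each was set beside the gene that its name refers to, called its partner gene here. The samples were 24 RNA libraries of K562, an established human leukaemia cell line with erythroid traits. The cells were grown in RPMI medium with 10% bovine calf serum and antibiotics. The culture was synchronised by centrifugal elutriation, which sorts cells by size, and 1 library was made every 2 h from 0 h to 46 h, with no treated group and no replicate. The study looked for STRIPEs, time points whose transcript levels stand apart from the time points before and after, and 16 h and 18 h were named as such, with 32 h as a milder case that is kept in the comparisons here unless said.

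An antisense RNA is transcribed from the strand opposite to another gene, and can overlap it tail to tail, lie inside an intron, or start back to back with it from a shared promoter region. Most such RNAs encode no protein, and several are known to act on transcription of the neighbouring gene or to bind microRNAs and proteins, while for many no function is known. They are often low and partly held in the nucleus.

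The values are FPKM, fragments scaled by transcript length and by the mapped reads of the library, so that levels of different genes can be set side by side. Read depth is unknown, and no error from counting reads can be given. Whether the libraries kept the strand of the RNA is not stated. Where an antisense gene and its partner overlap in exons, their reads may therefore not have been told apart. All 15 erythroid marker genes were in the table, with a summed level of 4843 to 9592 FPKM, against 1 of 7 fibroblast markers (1.70 to 3.94 FPKM) and 3 of 7 lymphoid markers (20.2 to 56.0 FPKM). The summed level of 5 nuclear-retained RNAs, most of it MALAT1, was 11515 FPKM at 16 h. It was 12776 FPKM at 18 h, and its median over the other 22 time points was 1345 FPKM. The 5 RNAs did not move together. MALAT1 and TUG1 rose above their ranges of the other time points, and PVT1 and MEG3 stayed within theirs. NEAT1 fell to 133 and 110 FPKM at 16 h and 18 h, below its range of 183 to 540 FPKM. The part of these RNAs in the results below was not tested.

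By GENCODE 29 gene type the members were 133 antisense genes, 25 processed transcripts, 23 lincRNAs, 5 transcribed pseudogenes and 2 bidirectional promoter lncRNAs. The only protein-coding gene with such a symbol, NCBP2-AS2, was left out. A partner gene was in the table for 141 members, and all 141 partner genes were protein coding. For the other 47 members the partner gene was not in the table, and for 3 of these (HOXB-AS1, TRG-AS1 and RPARP-AS1) the name refers to no single GENCODE gene. In 100 of the 141 pairs the annotated exons overlapped, in 18 the genes overlapped in introns only, in 21 they started back to back within 1000 bases of each other, and in 2 they did not overlap.

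Stretches of genome between the starts of an antisense gene and its partner are shown for 3 pairs on which the results below turn. TRIM52-AS1 had the largest rise of all members at 16 h and 18 h, ATP2A1-AS1 had the largest fall, and TDRKH-AS1 was higher on the second day together with its partner gene. By GENCODE 29 the pair of TRIM52-AS1 starts back to back, and those of ATP2A1-AS1 and TDRKH-AS1 also have transcripts whose exons overlap. The letters are RefSeq's for GRCh38.p14, read 5′ to 3′ on the strand of the antisense gene, from between the RefSeq starts of both genes, and hold no GENCODE 29 exon of either. The stretch of TRIM52-AS1 is chr5:181261144-181261211 on the plus strand, that of ATP2A1-AS1 is chr16:28879922-28880042 on the minus strand, and that of TDRKH-AS1 is chr1:151790535-151790748 on the plus strand. Capitals mark the CCAAT box (CCAAT) and the GC box (GGGCGG), short motifs common in promoters, on either strand.
TRIM52-AS1: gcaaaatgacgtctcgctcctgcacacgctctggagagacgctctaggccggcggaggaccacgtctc
ATP2A1-AS1: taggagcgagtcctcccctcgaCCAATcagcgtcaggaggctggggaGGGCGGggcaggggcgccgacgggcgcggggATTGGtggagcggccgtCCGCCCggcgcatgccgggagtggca
TDRKH-AS1: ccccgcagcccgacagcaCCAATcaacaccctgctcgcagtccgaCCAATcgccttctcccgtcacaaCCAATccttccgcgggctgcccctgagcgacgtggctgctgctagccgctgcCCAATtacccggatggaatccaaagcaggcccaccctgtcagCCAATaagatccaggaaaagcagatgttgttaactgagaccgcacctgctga
The stretch of TRIM52-AS1 is 68 bases long with a GC content of 63.2% and holds neither motif, that of ATP2A1-AS1 is 121 bases long with 75.2% GC and holds 2 of each, and that of TDRKH-AS1 is 214 bases long with 59.8% GC and holds 5 CCAAT boxes. RefSeq promoter windows of 300 bases were found for 129 members (157 windows, since a gene can have several starts). The CCAAT box was in 35.0% of the members' windows and in 35.4% of those of all matched genes of the table, and the GC box was in 61.1% and 68.0%. The TATA box (TATAAA) was in 5.73% and 5.81%.

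Antisense genes were low as a group. The median of their mean FPKM over the series was 3.66, against 17.6 for the partner genes and 13.7 for all genes of the table. Means ranged from 0.960 to 683 FPKM, and 38 of 188 members reached 10 FPKM. LRRC75A-AS1 (ENSG00000175061), the host gene of several small nucleolar RNAs, was by far the highest, at 561.6 FPKM at the lowest, 688 at the median and 908 at the highest of the 22 time points left when 16 h and 18 h are set aside. It was followed by TMEM132D-AS1 with a mean of 74.3 FPKM, FGD5-AS1 with 48.7, THUMPD3-AS1 with 46.1, OIP5-AS1 with 43.7 and THAP9-AS1 with 38.1. OIP5-AS1 (ENSG00000247556), also called Cyrano, is a conserved RNA known to bind the microRNA miR-7. Its level ranged from 34.8 to 58.7 FPKM with a median of 42.0 over the same 22 time points. These ranges overlapped for FGD5-AS1 (43.7 to 56.1 FPKM), THUMPD3-AS1 (31.1 to 63.0 FPKM) and OIP5-AS1, so that their order changed with the hour.

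Set beside their partner genes per length, most antisense genes were the lower of the pair. The median ratio of antisense to partner level was 0.224, with quartiles of 0.0715 and 0.721. In 98 of 141 pairs the antisense gene was lower at every time point, and in 45 pairs its mean was under 10% of that of its partner. The lowest ratio, 0.00366, was that of TPT1-AS1 (3.18 FPKM), since TPT1, an abundant growth-linked protein gene, had 869 FPKM. The antisense gene had the higher mean in 20 pairs and was higher at all 24 time points in 12. THAP9-AS1 (ENSG00000251022) stood 15.6 times above THAP9, a gene derived from a transposase, with 29.4 to 51.2 FPKM against 1.73 to 3.0 FPKM at the 22 time points. CCDC144NL-AS1 was 12.8 times, TTC28-AS1 11 times and TNRC6C-AS1 6.05 times as high as its partner, and TNRC6C encodes a protein of microRNA silencing. In 14 of the 20 pairs exons of the 2 genes overlapped, so that part of the reads could have been given to either. The median ratio was 0.172 in pairs that overlap in exons, 0.311 in back-to-back pairs and 0.601 in pairs that overlap in introns only.

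**Figure D1:**
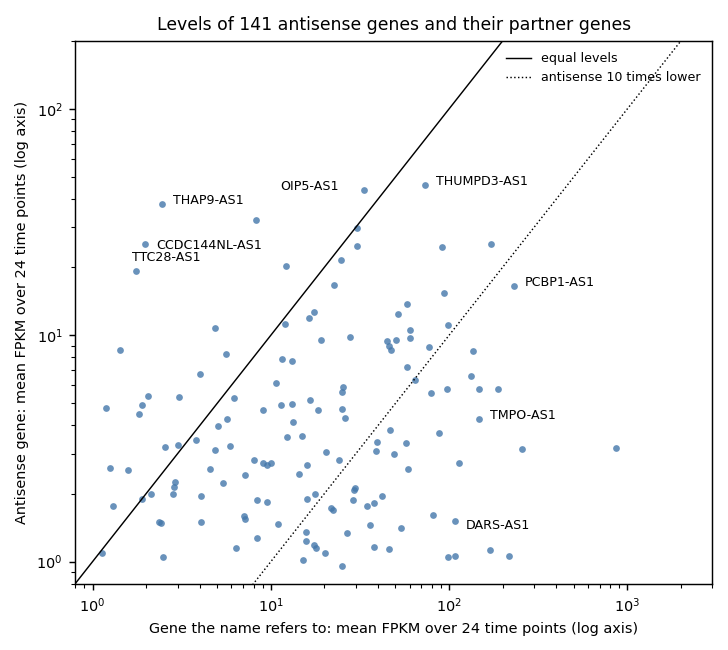
Mean FPKM over 24 time points of 141 antisense genes (vertical, log axis) against the genes their names refer to (horizontal, log axis), 1 point a pair. The solid line marks equal levels, above which lie 20 pairs, and the dotted line a level 10 times lower, below which lie 45.

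At 16 h and 18 h antisense genes moved to both sides. A line was drawn from the value of a gene at 14 h to that at 20 h on log2(FPKM + 1), and the mean distance of the values at 16 h and 18 h from it is called the deviation. Changes of low genes come out too small on this scale. Of 187 members with a mean of at least 1 FPKM, 7 (3.74%) exceeded the line by 2-fold or more and 7 (3.74%) were 2-fold or more under it, against 8.95% and 7.11% of all 12253 genes. With 1 library per time point there is no test of these shares. The members' median deviation was −0.04, against 0.14 for all genes and 0.25 for the partner genes, of which 20 of 141 lay 2-fold above and 7 below. Centring each time point on its median log2 value moved the median of all genes to 0.02 and that of the members to −0.15, and upper-quartile scaling moved them to −0.07 and −0.21.

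The same shares were taken by range of level, and the part of level in them was not tested. Of 149 members with a mean of 1 to 10 FPKM, 4 lay 2-fold above (2.68%) and 7 below (4.70%), against 5.96% and 6.33% of all 5084 genes in that range. Of 38 members at 10 FPKM or more, 3 lay above (7.89%) and 0 below, against 11.1% and 7.66% of 7169 genes.

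The 7 members above 2-fold were TRIM52-AS1, SEPSECS-AS1, ZSCAN16-AS1, NUTM2B-AS1, IER3-AS1, VPS9D1-AS1 and LCMT1-AS1, with deviations of 1.33 down to 1.03. The next below the threshold was NIFK-AS1 at 0.93. TRIM52-AS1 (ENSG00000248275) had 9.59, 24.5, 26.9 and 9.62 FPKM from 14 h to 20 h. The range at the 22 other time points was 7.54 to 12.4 FPKM, so that both middle values lay above all others. In the same hours TRIM52, a RING-type ubiquitin ligase gene whose start lies back to back with it, had 9.42, 10.2, 11.7 and 9.76 FPKM, within its range of 9.42 to 14.3 FPKM at the other time points. The deviation of TRIM52-AS1 was 1.33, against −0.29 to 0.30 in its 16 reference pairs of consecutive time points away from 16 h and 18 h, and that of TRIM52 was 0.17.

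SEPSECS-AS1, back to back with SEPSECS, which encodes the enzyme that makes selenocysteine on its tRNA, had 3.17, 6.44, 8.32 and 2.28 FPKM over these hours. SEPSECS deviated by 0.26, against 1.17 for its antisense gene. NUTM2B-AS1, with 12.8, 24.6, 30.4 and 11.7 FPKM, and ZSCAN16-AS1, with 5.83, 13.1, 16.96 and 6.66 FPKM, had no partner gene in the table. IER3-AS1 had 1.59, 3.68, 4.37 and 1.11 FPKM, while IER3, an immediate early gene of the stress response, was below its flanks by 0.35 on the log2 scale (a deviation of −0.35). In each of these 4 members both values were above the highest of the 22 other time points.

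Among the 7 members below 2-fold, with deviations of −1.38 to −1.11, were ATP2A1-AS1, MAP3K14-AS1, SLC9A3-AS1, UBXN10-AS1, TMC3-AS1 and MELTF-AS1, and the next was LIPE-AS1 at −0.95. LIPE-AS1 was also the only member listed at 0 at any time point, at 16 h. ATP2A1-AS1 (ENSG00000260442) had 6.24, 1.45, 2.10 and 6.07 FPKM from 14 h to 20 h, and its range at the other time points was 4.03 to 7.33 FPKM. ATP2A1, the calcium pump gene of fast muscle, had 2.59, 3.41, 3.13 and 1.90 FPKM and a deviation of 0.40. The antisense gene was higher than its partner at 21 of 24 time points, and lower at 16 h, 18 h and 32 h.

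MAP3K14-AS1 had 4.44, 1.14, 1.497 and 5.42 FPKM over the same hours, and MAP3K14, the kinase gene of the noncanonical NF-κB pathway, deviated by −0.37. UBXN10-AS1 had 0.968 and 0.194 FPKM at 16 h and 18 h, under its range of 1.18 to 3.51 FPKM elsewhere, and UBXN10 deviated by −0.13.

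**Figure D2:**
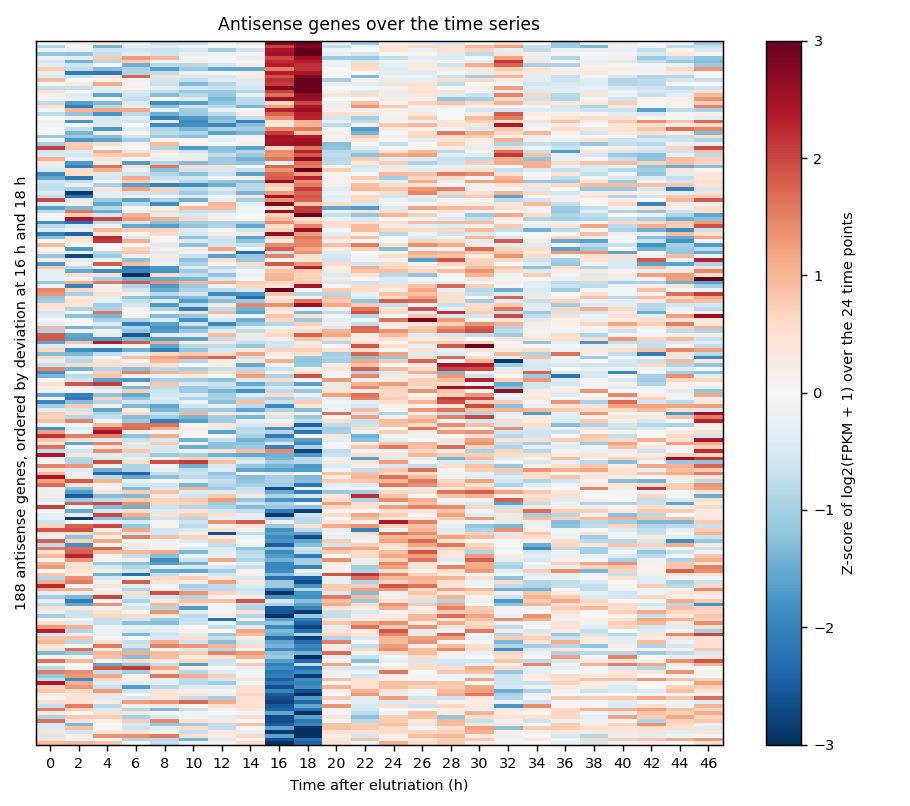
Each row is 1 of the 188 antisense genes and each column 1 of the 24 time points after elutriation (h), coloured by the Z-score of log2(FPKM + 1) over the series, with rows in the order of the deviation at 16 h and 18 h. The columns at 16 h and 18 h are red for the upper rows and blue for the lower rows, which the row order fixes in part.

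Of all 188 members, 53 had their highest of 24 values at 16 h or 18 h and 67 their lowest, or 28.2% and 35.6%, against 39.3% and 27.3% of all genes. The deviation lay above all 16 reference pairs of the gene in 60 of 187 members (32.1%, against 43.6% of all genes) and below all of them in 58 (31.0%, against 28%). The abundant LRRC75A-AS1 was lower than its flanks but not by 2-fold, with 759, 424, 386 and 670 FPKM from 14 h to 20 h and a deviation of −0.82. Together the members took 0.328% and 0.321% of the summed FPKM at 16 h and 18 h, and 0.384% to 0.469% at the others. Without LRRC75A-AS1 the shares were 0.254% and 0.256%, inside the range of 0.246% to 0.318% found elsewhere.

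GC content of the transcript moved with the deviation among the members, as it did among all genes. In the 62 members of lowest GC content (34.5% to 44.5%) the median deviation was 0.27, in the middle 62 it was 0.06, and in the 63 of highest GC content (51.7% to 64.8%) it was −0.36. All genes in the same GC ranges had medians of 0.47, 0.17 and −0.36. With the smooth GC trend of all genes taken out of the deviations, 5 of 187 members were past 2-fold on each side. Of all genes 5.44% were then 2-fold above and 3.99% below. For SEPSECS-AS1 the deviation was then 0.64, for NUTM2B-AS1 0.55 and for ZSCAN16-AS1 0.88. It was −0.99 for ATP2A1-AS1, −0.89 for MAP3K14-AS1 and −0.56 for SLC9A3-AS1, all under 2-fold, while TRIM52-AS1 (1.48), IER3-AS1 (1.39) and UBXN10-AS1 (−1.24) stayed past it.

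Antisense genes were then set beside their partner genes at the same hours. In 0 of 141 pairs were both genes 2-fold above their flanks, and in 0 pairs were both 2-fold below or past 2-fold in opposite directions. Of all 3451 opposite-strand pairs 0.811%, 1.83% and 0.927% were so, and nothing is read from a count of 0 among 141. The signs of the deviations were the same in 75 pairs. Across the 141 pairs the Pearson correlation of the deviations was 0.15, as a description, since the genes of all pairs share the same 4 libraries. Beside the 20 partner genes that were 2-fold above their flanks, the antisense genes had a median deviation of −0.02 and ranged from −0.78 to 0.93, and 10 were positive. NFYC, a subunit of the factor that binds the CCAAT box, had 35.4, 84.9, 90.7 and 28.7 FPKM from 14 h to 20 h, while NFYC-AS1 had 2.83, 2.14, 2.13 and 3.41 FPKM. LENG8 had 68.6, 168, 169 and 56.2 FPKM, while LENG8-AS1 had 5.09, 6.86, 5.55 and 8.57 FPKM. Beside the 7 partner genes that were 2-fold below, the antisense genes had a median of −0.33. The lowest of these partner genes was H1FX, a linker histone gene, with a deviation of −2.12 against −0.33 for H1FX-AS1.

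**Figure D3:**
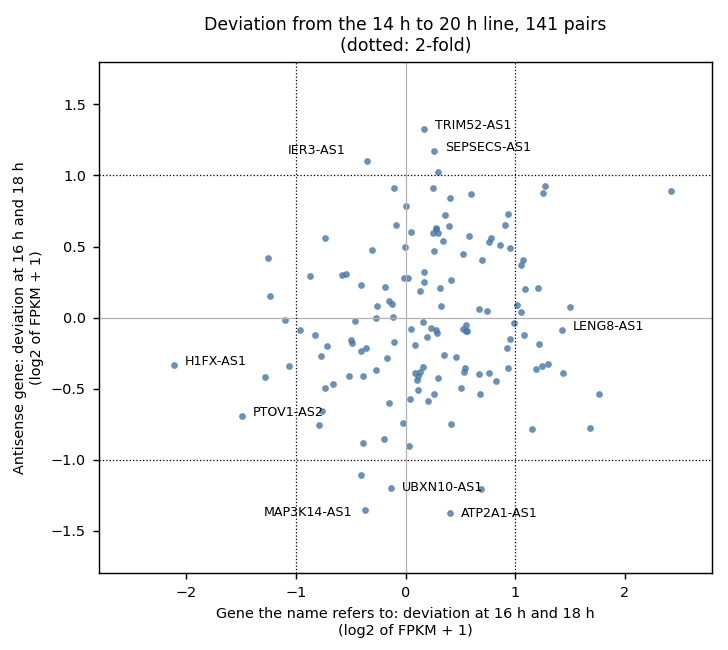
Deviation at 16 h and 18 h from the line between 14 h and 20 h, in log2(FPKM + 1), of 141 antisense genes (vertical) and their partner genes (horizontal), 1 point a pair. Dotted lines mark 2-fold, and no point lies past 2-fold on both axes.

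To ask whether antisense genes changed between the 2 days of the series, each hour of the second day was set against the same hour of the first day, 24 h before, in limma with the hour as a block. The 10 matched hours without 16 h and 18 h and their counterparts 40 h and 42 h were used. Time points of 1 culture are not replicates, and the p-values measure only the spread between matched hours. Of 187 members, 40 (21.4%) were higher on the second day at an adjusted p of 0.05 or below, against 12.6% of all 12253 genes, and 5 (2.67%) were lower, against 6.8%. The median difference was 0.11 for the members and 0.01 for all genes. By hour, the median FPKM of the members was 3.31 to 3.83 on the first day. It was 3.92 to 4.45 from 24 h to 30 h and 3.34 to 4.04 from 32 h to 46 h. The part of single libraries in the difference was not tested. A positive difference of any size was found in 135 of 187 members (72.2%) and in 52.8% of all genes. Of 314 other genes of GENCODE type antisense 14.6% were higher and 7.01% lower. Of the other lincRNA genes 22.8% were higher and 4.19% lower, and of the partner genes 10.6% and 5.67%. Over all genes the share higher was smaller at higher level, and among the members it was not. Among genes with a mean of 1 to 10 FPKM, 31 of 149 members (20.8%) and 17% of all genes were higher, and at 10 FPKM or more 9 of 38 members (23.7%) and 9.56% of all genes. Without 32 h and its match 32 members were higher and 3 lower, against 10.8% and 5.91% of all genes. The split of the calls depended on scaling. Over all genes it was 1547 higher and 833 lower as deposited, and 1262 and 1261 with each time point centred on its median, where the members' split was 32 and 6.

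Among the 40 members the differences ranged from 0.17 to 0.58 with a median of 0.32. In 35 of them at least 9 of 10 matched hours had the direction of the difference. The same hours chose the 40 members, so this agreement is a description and adds no support. ZNF385D-AS1 (ENSG00000225542) had a mean of 9.50 FPKM over the first-day hours and 14.4 over the second, a difference of 0.58 ± 0.11 (SE, limma adjusted p = 0.00411). LENG8-AS1 went from 7.16 to 11.04 FPKM (0.58 ± 0.14, limma adjusted p = 0.0126) and ISPD-AS1 from 2.30 to 3.74 FPKM (0.53 ± 0.12, limma adjusted p = 0.0103). ISPD-AS1 was higher on the second day at all 10 matched hours, and LENG8-AS1 at 9 of 10. LENG8-AS1 was high at 22 h, 28 h and 30 h (12.9, 14.3 and 16.8 FPKM), where the summed level of all members was also highest (2282, 2348 and 2430 FPKM), and the part of these libraries was not tested. The highest value of ISPD-AS1, 6.45 FPKM, was at 32 h, and without that hour and its match its difference was 0.41 and still passed the test.

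MEF2C-AS1 (ENSG00000248309) was also higher at all 10 hours. It went from a mean of 1.46 to 2.50 FPKM (0.52 ± 0.08, limma adjusted p = 0.00115), and its values over the 22 time points ran from 0.880 FPKM at 14 h to 3.55 FPKM at 46 h. Its partner gene MEF2C, a transcription factor of muscle and blood cells, was higher by 0.46 (limma adjusted p = 0.0113).

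Most partner genes of these members did not pass the test. Of the 31 with a partner gene in the table, 4 partner genes were higher as well, 1 was lower and 26 were not called. The partner genes' median difference was 0.00. Over all genes 12.6% were higher and 6.8% lower, so nothing particular to these partner genes is read from the counts. The 4 pairs in which both genes were higher were those of MEF2C-AS1, PIK3CD-AS2, ASMTL-AS1 and TDRKH-AS1, and the pair of opposite direction was that of TSPOAP1-AS1. These 5 pairs were named after their values were seen. TDRKH-AS1 had a mean of 0.924 FPKM on the first day and 1.42 on the second, a difference of 0.34 beside 0.27 for TDRKH, a gene of the piRNA pathway (limma adjusted p = 0.0331 and 0.0103). TSPOAP1-AS1 was higher by 0.46 and TSPOAP1 fell by 0.55 (limma adjusted p = 0.0209 and 0.0164). Whether the members and their partner genes differed from each other in their change was not tested.

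The 5 members that were lower on the second day were SH3BP5-AS1, SLC25A25-AS1, RBM26-AS1, TMEM44-AS1 and PXN-AS1. SH3BP5-AS1 (ENSG00000224660) had 9.17 FPKM at 2 h and 1.56 FPKM at 44 h, with a median of 3.06 over the 22 time points. Its day means were 4.79 and 2.45 FPKM, so that it fell by 0.69 ± 0.11 on the log2 scale (limma adjusted p = 0.00186). SH3BP5 had 11.2 FPKM at 2 h and 15.0 FPKM at 44 h, and its difference of 0.17 did not pass the test (limma adjusted p = 0.0817). SLC25A25-AS1, named for a mitochondrial carrier of ATP-magnesium, fell from 5.14 to 3.27 FPKM, by 0.49 ± 0.09 (limma adjusted p = 0.00313). None of the 5 partner genes was called in this comparison. Without 32 h and its match 3 of the 5 were called, and TMEM44-AS1 and PXN-AS1 were not.

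**Figure D4:**
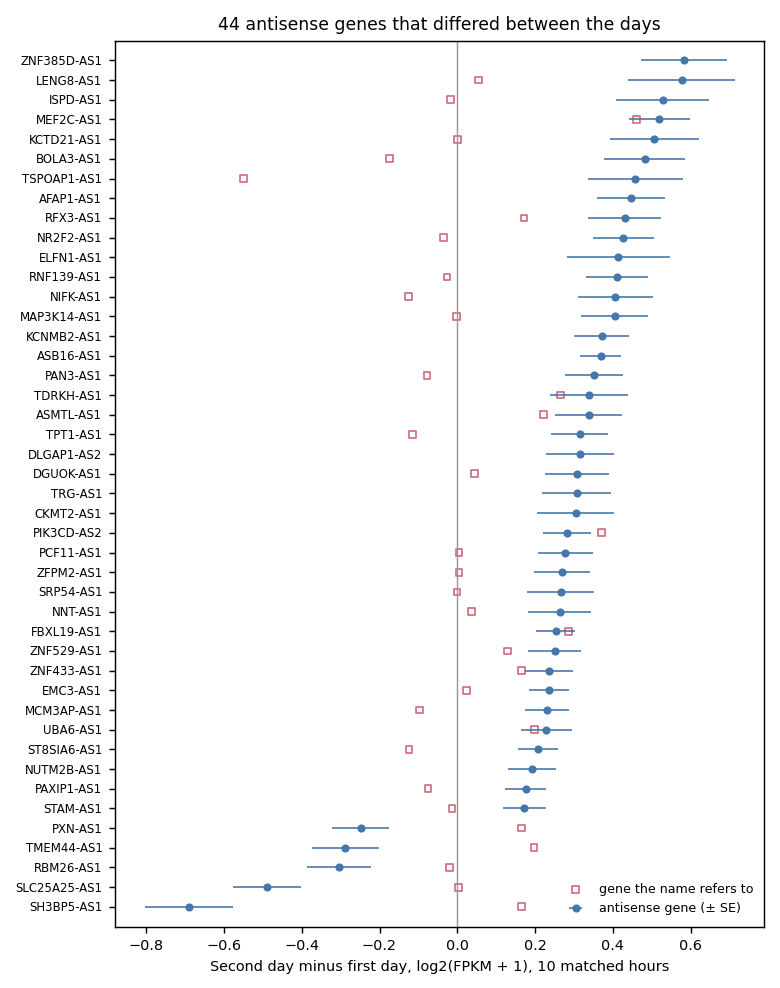
Difference of the second day from the first in log2(FPKM + 1) over 10 matched hours for antisense genes that passed the test, all but 1 of them drawn (filled points, bars are ± SE from limma) and for their partner genes where present (open squares). The members on the right lie between 0.17 and 0.58, and many open squares lie near 0.

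To ask which members followed an order in time with a period of 24 h, as the study assumed for 1 cell cycle, the JTK statistic was used (the largest Kendall agreement with a 24 h cosine over 12 phases) with a permutation p from 100000 orderings. At an adjusted p of 0.05 or below 26 of 188 members were called (13.8%), against 11.9% of all 12285 genes. Slow drift also lowers this p. Of the 26, 5 were also called between the days. There 21.4% of the tested members were called higher and 2.67% lower, and of all genes 12.6% and 6.8%. Nothing is read from the count of 5. The peak of the best-fitting cosine was at 0 h or 2 h for 13 of the 26 members (50.0%) and for 8.63% of all 1460 called genes. Without 16 h and 18 h, 36 members were called (background 16.2%), of which 13 (36.1%) peaked at 0 h or 2 h, against 11.4% of 1993 called genes. Of the 26 members, 16 (61.5%) had their lowest value at 16 h or 18 h, and of all called genes 39.5%. No test was made of these phases.

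PTOV1-AS2 (ENSG00000269352) ranked highest (permutation test, adjusted p = 0.00148). It climbed from 4.66 FPKM at 0 h to 11.9 FPKM at 6 h. On the second day it had 6.81 FPKM at 24 h and a maximum of 8.65 FPKM at 30 h. The first maximum was thus the higher, and the values at 16 h and 18 h, 3.27 and 2.69 FPKM, were the lowest of the series. PTOV1 was not called (adjusted p = 0.956, permutation test), and ranged from 56.8 to 80.0 FPKM over the 22 other time points. At 16 h and 18 h PTOV1 was also at its lowest, with 31.8 and 19.8 FPKM.

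DARS-AS1 and THAP7-AS1 followed, both with a cosine peak at 2 h (permutation test, adjusted p = 0.00509 for each). DARS-AS1, named for the aspartyl-tRNA synthetase gene, had 2.67, 2.76 and 2.83 FPKM over its first 3 time points (0 h to 4 h). It then had 0.766 FPKM at 14 h and 2.35 FPKM at 20 h, and its lowest value was 0.479 FPKM (34 h). THAP7-AS1 reached 2.44 FPKM at 2 h and 2.30 FPKM at 26 h, with 1.06 FPKM at 42 h as its lowest value. TRAF3IP2-AS1, named for an adaptor gene of the interleukin-17 receptor, was also among the first 5 members (permutation test, adjusted p = 0.00953). Of the called members 22 had a partner gene in the table, and both genes were called in 2 pairs, those of THAP7-AS1 and PCBP1-AS1. Among all partner genes 11.3% were called and among all genes 11.9%, so nothing is read from the count of 2. In each of these 2 pairs the partner gene's cosine peaked 4 h later. It was at 6 h against 2 h for THAP7 and at 8 h against 4 h for PCBP1, which encodes an RNA-binding protein.

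Correlation between an antisense gene and its partner was measured over the 22 time points without 16 h and 18 h, with a permutation p adjusted over all 3451 opposite-strand gene pairs of the table that overlap or lie within 5000 bases, among them 1 named pair (LYRM4-AS1 and LYRM4) that lies farther apart. Successive time points are not independent. In 86 of 141 pairs r was positive, and its median was 0.12, against 0.11 over all 3451 pairs. A positive correlation was called in 11 pairs (7.80%) and a negative correlation in 2 (1.42%), against 9.88% and 3.04% of all pairs. Over differences between successive time points 3 pairs were called positive and 0 negative, against 4.69% and 2% of all pairs. With each time point centred on its median log2 value 12 were positive and 4 negative, against 10.2% and 3.77%. The positive calls fell on 7 of 100 pairs that overlap in exons, on 3 of 18 that overlap in introns only and on 1 of 21 back-to-back pairs.

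H1FX-AS1 (ENSG00000206417) and H1FX were the pair with the highest r. H1FX-AS1 had 3.31 and 3.34 FPKM at 0 h and 2 h, a median of 1.83 FPKM and its lowest value, 0.895 FPKM, at 22 h. H1FX had 95.0 and 87.2 FPKM at 0 h and 2 h, a median of 41.0 FPKM and 22.8 FPKM at 22 h. Both genes were thus highest at 0 h and 2 h and, of the 22 time points, lowest at 22 h. H1FX was next lowest at 28 h and 30 h (26.6 and 27.9 FPKM), and the part of these libraries was not tested. Pearson's r was 0.77 (permutation p = 3e-05, adjusted p = 0.00203) and Spearman's rho 0.63 (permutation p = 0.00217, adjusted p = 0.0319). Without the 2 time points farthest from the median of H1FX r was 0.60, and over successive differences it was 0.66 (permutation test, adjusted p = 0.0314). The annotated exons of the pair share 345 bases.

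ZNF433-AS1, the higher gene of its pair at all 24 time points, had an r of 0.75 with the zinc finger gene ZNF433 (permutation p = 0.0001, adjusted p = 0.00352) and a rho of 0.71 (permutation p = 0.00033, adjusted p = 0.0104), with 0.64 without the 2 farthest time points. Over successive differences its r was 0.30 and did not pass the test, and with all 24 time points it was 0.55. The annotated exons of this pair share 487 bases. MEF2C-AS1 had an r of 0.66 with MEF2C (permutation p = 0.00077, adjusted p = 0.0127) and a rho of 0.74 (permutation p = 0.00013, adjusted p = 0.00575). It was 0.63 without the 2 farthest time points and 0.05 over successive differences. UBXN10-AS1, with no annotated exon overlap with UBXN10, had an r of 0.62 (permutation p = 0.00243, adjusted p = 0.0275), a rho of 0.61 (permutation p = 0.00306, adjusted p = 0.0391), 0.56 without the 2 farthest time points and 0.70 over successive differences (permutation test, adjusted p = 0.0314). The lone called back-to-back pair was that of UBA6-AS1 and UBA6, a ubiquitin-activating enzyme gene, with an r of 0.65.

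The negative calls were those of ST8SIA6-AS1 and PXN-AS1. ST8SIA6-AS1 (ENSG00000204832) overlaps ST8SIA6, a sialyltransferase gene, in introns only. It went from 8.88 FPKM at 0 h to 6.13 FPKM at 10 h while ST8SIA6 went from 4.16 FPKM to 7.36 FPKM, with a maximum of 8.16 FPKM at 8 h. From 20 h the antisense gene stayed at 7.86 FPKM or more, and ST8SIA6 was at 5.75 FPKM or less except at 32 h, when it had 7.33 FPKM. Pearson's r was −0.65 (permutation p = 0.00108, adjusted p = 0.0156) and rho was −0.65 (permutation p = 0.00119, adjusted p = 0.0212), with −0.48 without the 2 farthest time points and −0.25 over successive differences (permutation test, adjusted p = 0.57). At 16 h and 18 h, which r did not use, ST8SIA6-AS1 had 5.26 and 5.77 FPKM, its lowest values, and ST8SIA6 had 9.73 and 9.20 FPKM, its highest.

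For PXN-AS1 and PXN, the gene of the focal adhesion protein paxillin, r was −0.60 (permutation p = 0.00378, adjusted p = 0.0355) and −0.49 without the 2 farthest time points, but rho, −0.43, did not pass the test (permutation p = 0.0442, adjusted p = 0.191). With all 24 time points r changed sign, to 0.16, since PXN-AS1 was at its lowest, 4.69 and 5.23 FPKM, at 16 h and 18 h, where PXN was at 14.1 and 15.3 FPKM. NFYC-AS1 (r of −0.51) and TRAF3IP2-AS1 (r of −0.50), next in order, did not pass the test.

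**Figure D5:**
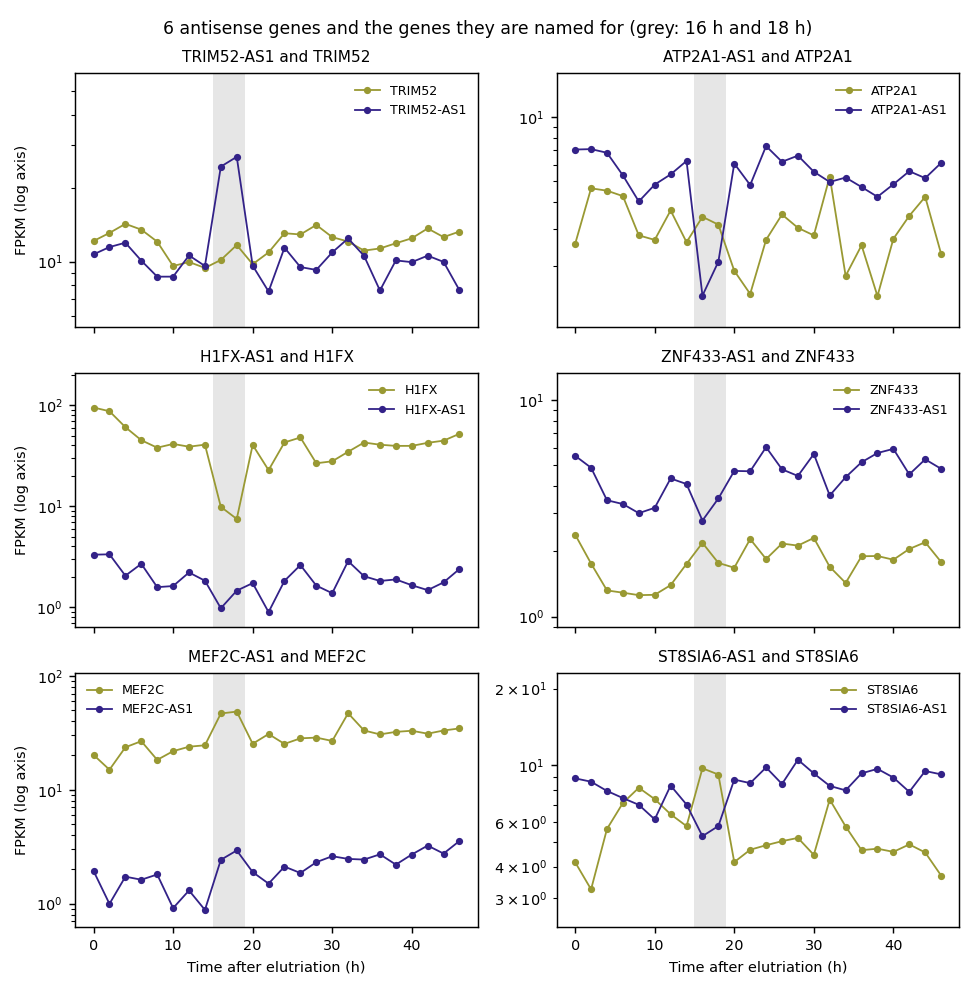
FPKM (log axes) of 6 antisense genes and their partner genes at each of 24 time points after elutriation (h), with 16 h and 18 h in grey. TRIM52-AS1 reached 26.9 FPKM and ATP2A1-AS1 fell to 1.45 FPKM in the grey band while TRIM52 and ATP2A1 stayed within the range of their other values, and ST8SIA6-AS1 and ST8SIA6 crossed.

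MCM3AP-AS1 (8.91 to 14.5 FPKM over the 22 time points) was higher on the second day by 0.23 (limma adjusted p = 0.0149), and MCM3AP, which had 43.5 to 62.3 FPKM, was not called. TMPO-AS1, named for a gene of the nuclear lamina, deviated by 0.58 at 16 h and 18 h, and TMPO by 0.58, while their r over the 22 time points was 0.10. GATA2-AS1 and GATA2, a transcription factor gene of blood progenitors, deviated by −0.41 and −0.39. GATA2-AS1 (median 14.3 FPKM) was called by JTK with a peak at 6 h (permutation test, adjusted p = 0.0369), and GATA2 (median 59.9 FPKM) was not (adjusted p = 0.0725, permutation test).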

How the data were processed

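RNA of 24 K562 samples, 1 per time point, was sequenced, and samples were assigned to hours from their labels. The deposited FPKM values were made by the authors with STAR, Cufflinks and Cuffnorm, and the submitters' processing notes name GRCh37. Tool versions, the annotation and the strandedness are not given in the sources used here. The deposited score table held Z-scores after quantile normalization by the authors and served as an alternative only. Depth is unknown and limits precision in a way that cannot be stated.

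Gene type, position relative to the partner gene, length and GC content came from GENCODE 29, in which 12180 of 12285 identifiers were found. Its build, GRCh38, is not that of the authors, so no gene coordinates are given other than those of RefSeq stretches. The members and lists were chosen with earlier results of these data known.

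Genes whose mean reached 1 FPKM were given a deviation, set beside those of 16 reference pairs. JTK and correlation p-values came from 100000 orderings, so the smallest possible p is 1e-05. The day comparison used limma 3.58.1 in R 4.3.3, and all p-values were adjusted by Benjamini-Hochberg over all genes or pairs tested. Other steps used Python 3.11.15 with numpy 2.4.6, pandas 2.3.3 and statsmodels 0.14.6. The scripts were tested on simulated data. Named members were the 6 of highest mean, the 5 largest rises and falls at 16 h and 18 h, the first 5 by JTK, the 4 largest day differences of each sign, the 4 highest and lowest r, the 4 highest ratios, and 6 chosen by name. Others are named where 7 or fewer made up a count, where a value lay next to a threshold or at an extreme, or with their partner gene, and these, the hours and the stretches printed were chosen after their values were seen. Some named members are not reported here. Alternatives were other pseudocounts, filters, scalings, a GC trend, periods, time points and correlation measures, and leaving out 32 h, which was added after seeing the data.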

Additional observations from a re-analysis of the deposited data

How the results depend on the processing

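Of the recomputed main counts and ratios 26 stayed close to the reported value and 19 moved. Of the recomputed values of single members 137 stayed close or kept their call, 17 moved, 20 lost the call, 3 gained it and 1 reversed. Of the 137, 4 deviations stayed within the spread of the reference pairs but came under 2-fold. The count of members 2-fold above their flanks, 7, was 12 with a pseudocount of 0.1 and 30 at 1.5-fold. Of all genes 10.97% and 23.9% were then above. The count was 3 of 38 members at a mean of at least 10 FPKM, 3 with centring and 1 with upper-quartile scaling. Of all genes 11.1%, 6.48% and 4.69% were then above. The count of members below, 7, was 17, 0 and 25 with the pseudocount, the filter and 1.5-fold. Over all genes the shares below were then 10.7%, 7.66% and 16.8%. The 26 JTK calls were 9 at a period of 20 h and 4 at 28 h, where 2.74% and 3.34% of all genes were called. The 5 lower members were 2 with all 12 matched hours, 3 without the block and 3 without 32 h, an alternative chosen after seeing the data. Of all genes 5.16%, 6.43% and 5.91% were then lower. The 11 positive correlations were 28 with all 24 time points and 3 over successive differences, against 28.9% and 4.69% of all opposite-strand pairs. The 2 negative ones were 1 with Spearman, 10 with all 24 time points, 0 over successive differences and 4 with centring. Among all opposite-strand pairs the negative shares were 2.03%, 8.58%, 2% and 3.77%. For PXN-AS1 r reversed to 0.16 with all 24 time points. The cause was not tested in any of these. Low FPKM values, unknown depth and unstated strand limit every value given.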
